A study of Homo sapiens with 12 samples.

Results

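The HOX genes of the 4 human clusters were followed in A375 melanoma cells after inhibition of the BRPF proteins, of the kinase CDC7, or of both. They were taken from the count table by their symbols, as HOXA, HOXB, HOXC or HOXD followed by a number, without the antisense transcripts of the clusters. This gave 38 genes among 26475 entries, with 10 in cluster A (chromosome 7), 10 in cluster B (chromosome 17), 9 in cluster C (chromosome 12) and 9 in cluster D (chromosome 2). Of these, 35 were among the 15353 genes with enough counts for a test. HOXD11, with 3 to 11 counts per library, and HOXD12, with 0 to 3, were counted but not tested. HOXB1 had no count in any of the 12 libraries, and a count of 0 allows up to 3 counts in a library.

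HOX genes encode transcription factors that give cells their position along the body axis and the limbs. Within a cluster the genes stand in the order in which they act from head to tail, so a low number (the paralog group) marks an anterior gene and a high number a posterior one. Adult cells and tumour lines often keep part of this pattern, held by activating complexes of the Trithorax (MLL) type and by the repressive Polycomb complexes. BRPF1, BRD1 (also called BRPF2) and BRPF3 are scaffolds that bring the histone acetyltransferases KAT6A, KAT6B and KAT7 to chromatin, and in fish and mouse embryos BRPF1 and KAT6A are needed for full expression of HOX genes. The comparison of cells with and without OF1 asks whether HOX transcripts depend on BRPF bromodomains in this line.

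A375 is an established human melanoma line. Each of the 4 groups had 3 libraries from cells exposed for 24 h to the solvent DMSO, to XL413 at 1 µM, to OF1 at 1 µM, or to both inhibitors at these doses, called the combination below. XL413 inhibits CDC7, a kinase that starts DNA replication, and OF1 binds the bromodomains of BRPF1, BRD1 and BRPF3. The submitters call the libraries biological replicates but do not say whether each came from its own culture, so each p-value reflects only how far these libraries spread, which may be technical. Poly(A) RNA was sequenced, and values are given as CPM (counts scaled to a common library total) after TMM scaling, always in the order of replicates 1, 2 and 3. Levels of different genes are compared only as CPM per kb of transcript.

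Totals ran from 30499559 to 36062138 counts per library. SOX10, a neural crest factor kept by melanoma cells, read 318 to 386 CPM, and MITF, the melanocyte regulator, 32.8 to 44.4 CPM. MITF was lower in the combination against DMSO, by 0.33 ± 0.05 in log2 (edgeR adjusted p = 0.00173), where 5.07% of all genes were lower. It also passed as lower in the average effects of OF1 (-0.15 ± 0.04) and of XL413 (-0.18 ± 0.04) explained below. No other of the 7 tested melanoma and melanocyte markers passed in these 3 comparisons. The pigment genes were near the floor: TYR had no count in any library and PMEL read 0.330 to 1.04 CPM. Transcripts listed as markers of skeletal muscle and of fibroblasts were also present, and the cells they came from were not tested. Over 29 muscle markers the summed CPM ranged from 127 to 311 with DMSO, 183 to 375 with XL413 and 174 to 388 with OF1. With the combination it was 143 in replicate 1, 45.6 in replicate 2 and 62.2 in replicate 3. The summed CPM of 12 fibroblast markers was 227, 102 and 127 in the same 3 libraries and 287 to 373 in the other 9. Collagens weigh most in this sum, with means over the 12 libraries of 83.9 CPM for COL1A1 and 77.8 for COL1A2. In the combination against XL413, 6 of these 12 markers were lower with an edgeR adjusted p under 0.05, where 2.35% of all genes were. TWIST1 read 12.4, 11.7 and 12.5 CPM with the combination, within its range of 10.6 to 14.5 over all libraries.

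Of 35 HOX genes tested in 8 comparisons, 5 passed the threshold in at least 1 of them: HOXC13, HOXB5, HOXB9, HOXD9 and HOXD13. Of all 15353 genes tested, 19.7% passed in at least 1 comparison, so calls were not more frequent among the HOX genes. The homeoboxes of HOXB9, HOXC13, HOXD9 and HOXD13 are shown here because the results turn on these genes and because related members share much of this sequence. Each homeobox codes for the DNA-binding homeodomain, lies in exon 2 of 2 and spans 180 bases. They are given 5′ to 3′ on the coding strand of GRCh38, with gene models from GENCODE 29. Capitals mark bases 142 to 153, which code for the tryptophan, phenylalanine, glutamine and asparagine of the helix that reads DNA.
HOXB9, minus strand, chr17:48622921-48623100: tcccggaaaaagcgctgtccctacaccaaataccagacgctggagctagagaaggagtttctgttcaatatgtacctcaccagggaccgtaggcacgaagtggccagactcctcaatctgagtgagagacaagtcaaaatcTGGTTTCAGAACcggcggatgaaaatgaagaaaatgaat
HOXC13, plus strand, chr12:53945041-53945220: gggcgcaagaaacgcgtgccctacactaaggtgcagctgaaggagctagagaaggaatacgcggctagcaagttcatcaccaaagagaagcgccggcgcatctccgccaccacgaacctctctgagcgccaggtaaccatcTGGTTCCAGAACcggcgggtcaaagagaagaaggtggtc
HOXD9, plus strand, chr2:176123969-176124148: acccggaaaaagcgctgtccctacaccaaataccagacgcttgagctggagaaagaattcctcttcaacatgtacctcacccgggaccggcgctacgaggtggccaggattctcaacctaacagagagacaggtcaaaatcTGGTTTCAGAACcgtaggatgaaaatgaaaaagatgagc
HOXD13, plus strand, chr2:176094524-176094703: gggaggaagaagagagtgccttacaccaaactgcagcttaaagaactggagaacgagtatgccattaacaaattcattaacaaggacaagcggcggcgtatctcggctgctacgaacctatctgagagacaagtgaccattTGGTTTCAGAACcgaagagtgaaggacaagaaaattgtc

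HOXB9 and HOXD9, members of the same paralog group in different clusters, had 84.4% identical homeobox bases, with a run of 40 identical bases. HOXC13 and HOXD13 had 73.9%, with no identical run longer than 8 bases, and HOXC13 was nearer to HOXB13 at 80.0%. Over all HOX genes the median was 81.7% for 40 pairs within a paralog group and 60.6% for the other 663 pairs. Over whole transcripts, the longest run of bases shared with another HOX gene was 40 for HOXB9 and HOXD9, 26 for HOXD13 and 20 for HOXC13. The read length is not given in the sources used here.

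Most HOX genes of clusters B and C were expressed in A375 cells, while clusters A and D held both expressed and weak genes. In cluster D, HOXD13 (5.08 CPM per kb), HOXD9 (4.69) and HOXD8 (3.03) stood apart from the other 6 genes, which were at 0.579 or below. A mean of at least 1 CPM was reached by 30 genes: 8 of 10 in cluster A, 9 of 10 in B, 9 of 9 in C and 4 of 9 in D. The median level per cluster was 1.05 CPM per kb in A, 5.21 in B, 7.66 in C and 0.554 in D. By position, the median was 0.880 CPM per kb for paralog groups 1 to 3, 4.47 for groups 4 to 8 and 2.77 for groups 9 to 13. Each of these sets held genes of very different levels, from 0 to 26.7 CPM per kb in groups 1 to 3 and from 0.0210 to 23.2 in groups 9 to 13.

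**Figure D1:**
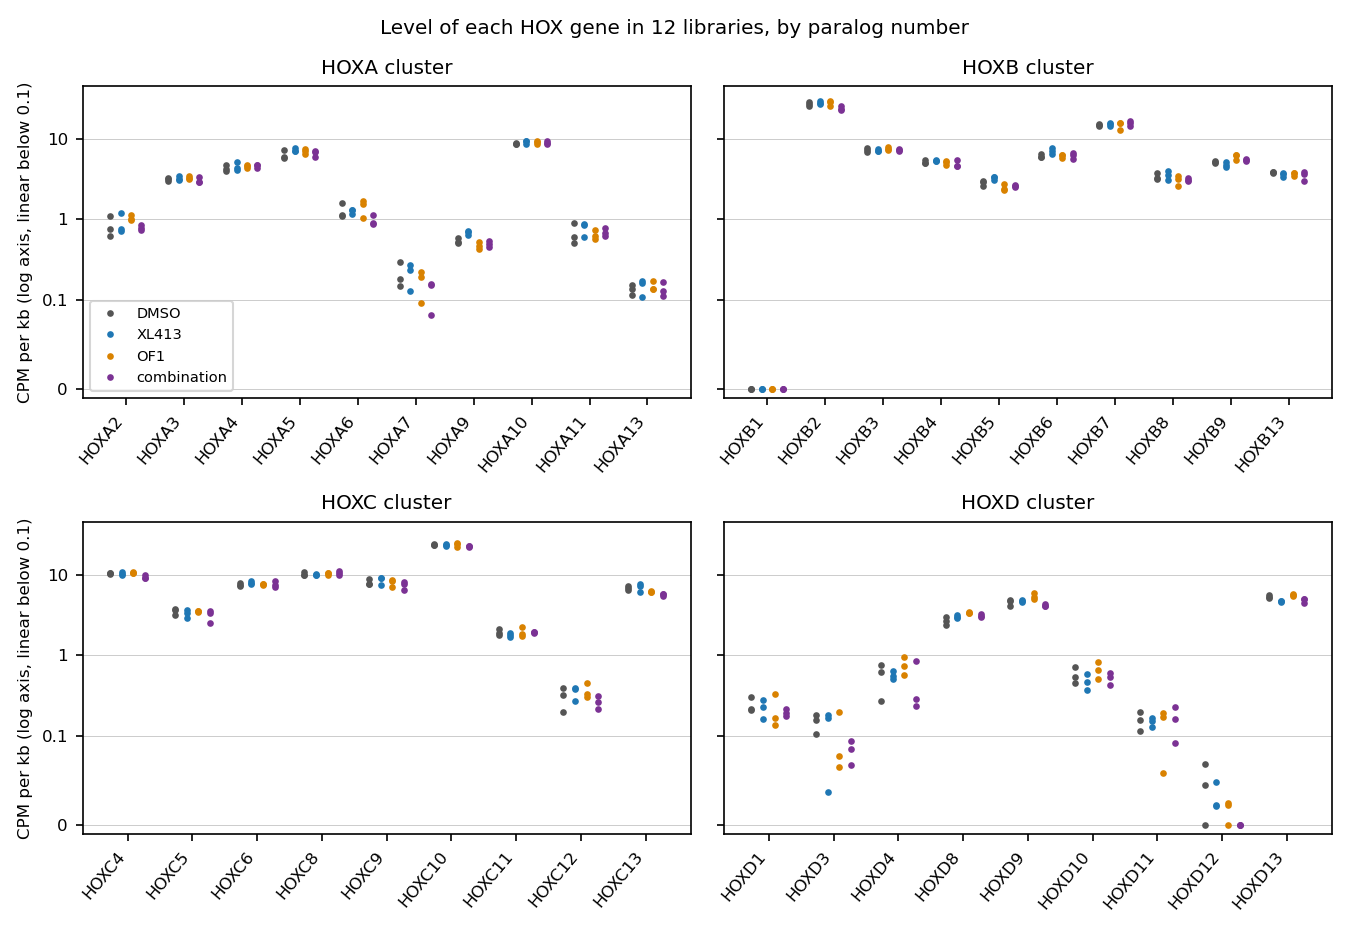
Level of each of 38 HOX genes in CPM per kb of transcript (vertical axis, logarithmic above 0.1 and linear below) by cluster and, within a cluster, by paralog number. Each point is 1 library, coloured by treatment. The points of the 4 treatments lie together for most genes, and the levels differ between genes from 0 (HOXB1) to 26.7 CPM per kb (HOXB2).

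In the order of levels, HOXB2 came first with a mean of 26.7 CPM per kb over the 12 libraries and HOXC10 second with 23.2, and their ranges overlapped. HOXB7 followed with 15.03, below every library of HOXC10 and above every library of HOXC8 (10.2). From HOXC8 down to HOXA4 (4.47) each gene overlapped its neighbour in the order, through HOXC4, HOXA10, HOXC9, HOXC6, HOXB3, HOXA5, HOXC13, HOXB6, HOXB9, HOXB4, HOXD13 and HOXD9. The next clear steps were from HOXA4 to HOXB13 (3.63), from HOXB5 (2.78) to HOXC11 (1.90) and from HOXC11 to HOXA6 (1.22). Below these, HOXA2 (0.880), HOXA11 (0.690), HOXD4 (0.579), HOXD10 (0.554), HOXA9 (0.544) and HOXC12 (0.319) overlapped their neighbours. HOXD1, HOXA7, HOXA13 and HOXD3 lay at 0.216, 0.179, 0.141 and 0.117 CPM per kb, and the untested HOXD11 and HOXD12 at 0.151 and 0.0210. HOXA7 had 6 to 20 counts per library and HOXD3 had 3 to 14, so changes of these genes were not detectable at this depth unless large. The order and its steps depend on the transcript length used. With the length of all exons of a gene joined, HOXC4 was at 7.08, HOXC6 at 5.51 and HOXA3 at 3.03 CPM per kb. HOXD8 was then at 1.85, below HOXC11.

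OF1 alone changed no HOX gene past the threshold, and the average effect of OF1, with and without XL413, changed 3 genes by small amounts. HOXC13 fell by 14.6%, HOXB5 fell by 16.9% and HOXB9 rose by 15.2%. In edgeR's quasi-likelihood test of OF1 against DMSO, 0 of 35 HOX genes had a Benjamini-Hochberg adjusted p under 0.05, where 1.15% of all 15353 genes did. The same count was 0 with DESeq2 and 0 with limma-voom, and at an unadjusted p under 0.05 it was 3 (HOXB9, HOXD8 and HOXD9), where 14.4% of all genes passed. For the average OF1 effect the count was 3 of 35 (1 higher, 2 lower), where 4.94% of all genes passed (2.21% higher, 2.74% lower). In the combination against XL413 it was 1 of 35, lower, where 3.41% of all genes passed and 2.35% were lower. The average effect is the mean of the log2 changes of OF1 against DMSO and of the combination against XL413, so it shares its libraries with both.

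HOXC13, a factor of hair and nail growth at the posterior end of cluster C (chromosome 12, 53938831 to 53946544), read 15.6, 16.5 and 17.7 CPM with DMSO, 17.3, 18.4 and 14.8 with XL413, 14.8, 14.7 and 15.3 with OF1 and 13.7, 13.1 and 14.02 with the combination. All OF1 libraries were below all DMSO libraries, and all combination libraries were below all libraries of the other groups. Groups that did not overlap in this direction were seen in 11.8% of all genes for OF1 against DMSO and in 10.4% for the combination against XL413. The group means were 16.6 ± 1.0 CPM with DMSO, 16.8 ± 1.8 with XL413, 14.96 ± 0.31 with OF1 and 13.6 ± 0.45 with the combination (SD, n = 3 each). The average OF1 effect was a log2 change of -0.23 ± 0.05 (SE; edgeR quasi-likelihood, Benjamini-Hochberg adjusted p = 0.0220), and the combination against XL413 gave -0.30 ± 0.07 (adjusted p = 0.0367, same test). For OF1 against DMSO the HOXC13 change was -0.15 ± 0.07, which did not pass. HOXC13 shares reads with its antisense entry HOXC13-AS, since the expected counts of both added up to whole numbers in all 12 libraries (within 0.015). With the 2 entries summed, both calls stayed, at -0.22 (edgeR adjusted p = 0.0162) and -0.27 (0.0433). Strand use in counting is not given in the sources used here, while these counts were divided between a sense and an antisense entry. Counts not whole alone but whole when summed with an antisense entry were also seen for HOXA7 (12 libraries), HOXA10 (9) and HOXB3 (8). For HOXA4 (11 libraries) the sum also needed HOXA3.

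The call of HOXC13 in the average OF1 effect was lost without DMSO replicate 2 or 3, XL413 replicate 1 or 2, OF1 replicate 2 or combination replicate 2, with log2 changes of -0.23 to -0.19 and edgeR adjusted p of 0.0540 to 0.0643. In the combination against XL413 the call of HOXC13 was lost without DMSO replicate 2, XL413 replicate 1 or 2, OF1 replicate 2 or combination replicate 2, with changes of -0.30 to -0.24 and edgeR adjusted p of 0.0553 to 0.168. Combination replicates 2 and 3 were also the libraries with the lowest muscle and fibroblast markers. With replicate 1 alone for the combination, HOXC13 changed by -0.29 against XL413 (edgeR adjusted p = 0.196). With the mean log2 CPM of the muscle markers as a covariate, the change of HOXC13 was -0.13 in that comparison (edgeR adjusted p = 0.942) and -0.17 on average (0.155). The muscle markers themselves moved with the treatment: 16 of 29 passed as lower in the combination against XL413 and 22 against OF1. Of all genes, 2.35% and 2.71% were lower in these comparisons. This covariate and the treatment can therefore not be fully told apart, here or for the genes below. Why calls were lost with it was not tested.

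HOXB5, a central gene that acts in the neural crest of the gut (chromosome 17, 48591257 to 48593779), read 6.12, 5.87 and 5.29 CPM with DMSO, 6.85, 6.26 and 6.83 with XL413, 4.80, 4.75 and 5.52 with OF1 and 5.22, 5.10 and 5.45 with the combination. Combination libraries were below all XL413 libraries, as in 10.4% of all genes, and OF1 libraries overlapped those with DMSO. The means were 5.76 ± 0.42, 6.65 ± 0.34, 5.03 ± 0.43 and 5.26 ± 0.18 CPM in the order DMSO, XL413, OF1 and combination (SD, n = 3 each). On average OF1 changed HOXB5 by -0.27 ± 0.07 in log2 (edgeR adjusted p = 0.0343). The separate changes were -0.20 ± 0.10 for OF1 against DMSO and -0.34 ± 0.09 for the combination against XL413 (edgeR adjusted p = 0.0638). The average call of HOXB5 was lost with DESeq2 (-0.27, adjusted p = 0.0542), and without DMSO replicate 1 or 2, XL413 replicate 1 or 3, OF1 replicate 1 or 2 or combination replicate 2, at -0.26 to -0.25 (edgeR adjusted p of 0.0723 to 0.0864). With the muscle covariate the change of HOXB5 was -0.28 (edgeR adjusted p = 0.0928).

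HOXB9, a posterior gene known from the thoracic skeleton and the mammary gland (chromosome 17, 48621156 to 48626358), read 13.5, 13.3 and 12.8 CPM with DMSO, 11.4, 13.1 and 12.3 with XL413, 13.96, 16.0 and 16.2 with OF1 and 13.6, 13.8 and 14.6 with the combination. Every OF1 library was above every DMSO and XL413 library, as 10.2% of all genes were for OF1 against DMSO, and every combination library was above every XL413 library, as 8.99% of all genes were. With means of 13.2 ± 0.35, 12.3 ± 0.85, 15.4 ± 1.3 and 13.99 ± 0.53 CPM in the same group order (SD, n = 3 each), HOXB9 rose by 0.20 ± 0.05 in log2 on average (edgeR adjusted p = 0.0299). OF1 against DMSO gave 0.22 ± 0.07 (edgeR adjusted p = 0.154), and the combination against XL413 gave 0.19 ± 0.07 (0.185). The average call of HOXB9 was lost without DMSO replicate 2 or 3, XL413 replicate 1 or 3, OF1 replicate 2 or 3 or combination replicate 2, at 0.18 to 0.21 (edgeR adjusted p of 0.0554 to 0.0834). With the muscle covariate the change of HOXB9 was 0.21 (edgeR adjusted p = 0.0996).

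**Figure D2:**
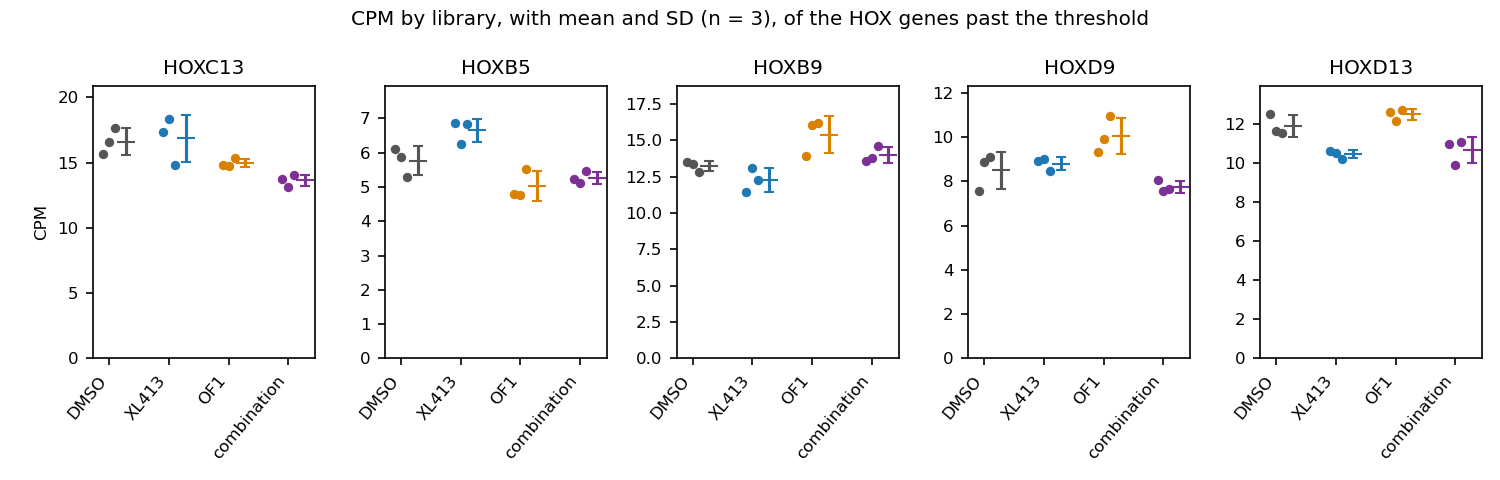
CPM (vertical axis, from 0) of HOXC13, HOXB5, HOXB9, HOXD9 and HOXD13 in each library, by treatment, with the mean and SD of 3 libraries drawn as bars beside the points. HOXC13 is lowest with the combination (13.6 CPM on average), HOXB9 highest with OF1 (15.4 CPM), and HOXD13 lower in both groups with XL413.

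The neighbours HOXD8 and HOXD9 were also higher with OF1 alone, without passing the test. HOXD8 read 3.81, 4.81 and 4.30 CPM with DMSO, 4.67, 5.05 and 4.76 with XL413, 5.39, 5.50 and 5.31 with OF1 and 4.72, 5.19 and 4.96 with the combination. All 3 OF1 libraries were above all DMSO libraries, as in 10.2% of all genes. The log2 change was 0.33 ± 0.10 (edgeR adjusted p = 0.144), against 0.04 ± 0.10 for the combination compared with XL413. HOXD9 also had all 3 OF1 libraries above all DMSO libraries, with a change of 0.24 ± 0.08 (edgeR adjusted p = 0.200). Unlike HOXD8, HOXD9 had its lowest group mean with the combination, and the change of the combination against XL413 was -0.18 ± 0.09. HOXA9, a gene that drives leukaemias with MLL fusions, read 1.08, 1.03 and 1.195 CPM with DMSO, 1.42, 1.31 and 1.48 with XL413, 1.07, 0.944 and 0.871 with OF1 and 1.02, 0.925 and 1.09 with the combination. Its average OF1 effect was -0.33 ± 0.13 (edgeR adjusted p = 0.160), on 29 to 53 counts per library. HOXB2, the most abundant HOX transcript per kb and a gene of hindbrain patterning, read 39.6, 41.7 and 44.6 CPM with DMSO, 43.1, 45.9 and 42.3 with XL413, 39.9, 44.4 and 45.8 with OF1 and 36.6, 35.5 and 40.1 with the combination. All combination libraries of HOXB2 lay below all XL413 libraries, a change of -0.23 ± 0.06 (edgeR adjusted p = 0.0607). In all, 8 of 35 HOX genes had every combination library below every XL413 library, where 10.4% of all genes did, and 1 (HOXB9) had them all above, where 8.99% did.

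How small a change could have been seen depends on the level. For the 23 HOX genes with a mean of at least 5 CPM, the 95% intervals of OF1 against DMSO reached from -0.41 (HOXB8) to 0.42 (HOXD9) in log2, so falls beyond 1.32-fold and rises beyond 1.34-fold lay outside all 23 intervals. The estimates of these 23 genes ran from -0.20 (HOXB5) to 0.24 (HOXD9). For the average OF1 effect the 23 intervals reached from -0.41 (HOXB5) to 0.31 (HOXB9). The interval was wide for the weak genes, as in HOXD3, where OF1 against DMSO gave -0.38 ± 0.52, and HOXD4, where it gave 0.45 ± 0.41.

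Over all 35 tested HOX genes the median log2 change of OF1 against DMSO was 0.02, with 22 genes above 0. Over all genes it was 0.00, with 7921 of 15353 above 0. The HOX median was 0.04 with the muscle covariate. By cluster the medians were 0.08 in A, -0.01 in B, 0.01 in C and 0.21 in D. By position they were 0.05 in paralog groups 1 to 3, 0.01 in groups 4 to 8 and 0.03 in groups 9 to 13. For the combination against XL413 the median was -0.13, with 26 of 35 genes below 0. Over all genes it was 0.01, with 7175 of 15353 below 0. Here the cluster medians were -0.16 in A, -0.12 in B, -0.08 in C and -0.18 in D. Those by position were -0.21, -0.13 and -0.09 from anterior to posterior. The HOX median of this comparison was -0.095 with the muscle covariate (21 below 0) and -0.17 with replicate 1 alone for the combination (29 below 0). The average OF1 effect had a median of -0.03 over the HOX genes and 0.00 over all genes, and -0.05 over the HOX genes with replicate 1 alone for the combination. OF1 against DMSO and the combination against XL413 share no library.

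**Figure D3:**
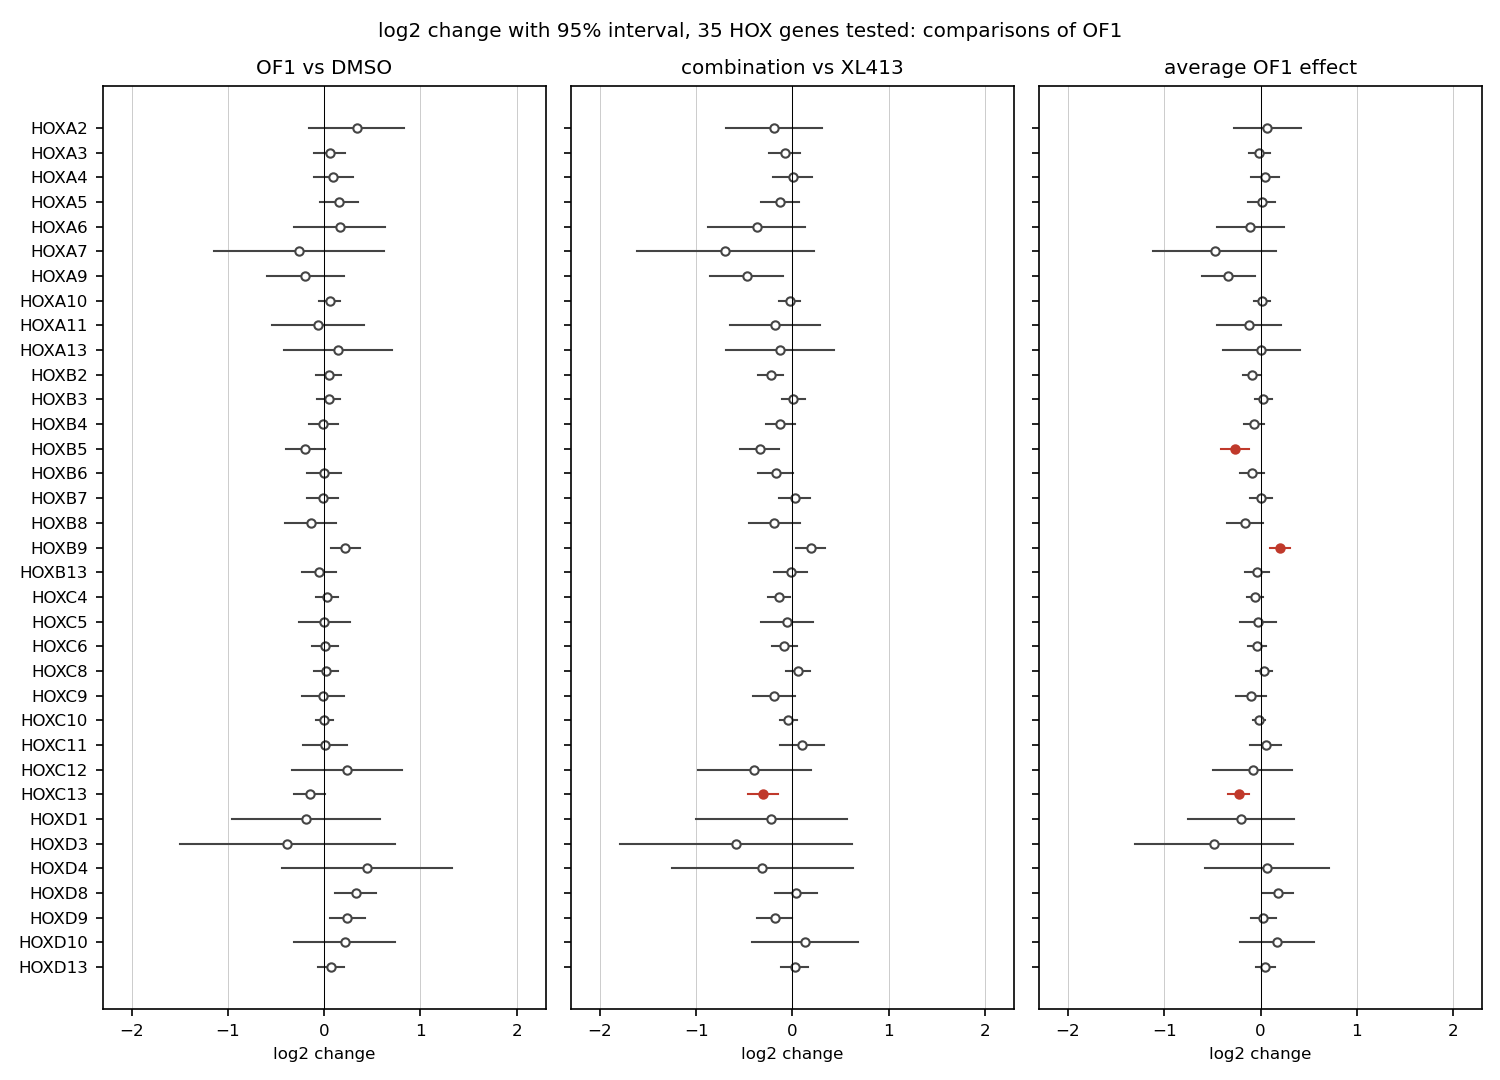
Log2 change (horizontal axis) of the 35 HOX genes tested, with 95% intervals as lines, for OF1 against DMSO, the combination against XL413 and the average OF1 effect. Filled red points mark genes with an adjusted p under 0.05 (HOXC13 in the second panel, HOXB5, HOXB9 and HOXC13 in the third), and most other intervals include 0.

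XL413 alone changed no HOX gene past the threshold, and its average effect, with and without OF1, lowered HOXD13. In XL413 against DMSO, 0 of 35 genes passed edgeR's quasi-likelihood test with Benjamini-Hochberg adjustment, where 2.80% of all genes did. The count was also 0 with DESeq2 and with limma-voom, and 3 at an unadjusted p under 0.05 (HOXB5, HOXB6 and HOXD13), where 18.6% of all genes passed. In the average XL413 effect 1 of 35 passed, where 12% of all genes did and 5.63% were lower. In the combination against OF1 it was 1 of 35, HOXD9, where 5.50% of all genes passed and 2.71% were lower.

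HOXD13, the most posterior gene of cluster D and a gene of digit formation (chromosome 2, 176087487 to 176095944), read 12.5, 11.6 and 11.5 CPM with DMSO, 10.6, 10.5 and 10.2 with XL413, 12.6, 12.2 and 12.7 with OF1 and 10.99, 9.89 and 11.1 with the combination. Every library with XL413, alone or in the combination, was below every library without it. Of all genes, 14.8% had all XL413 libraries below all DMSO libraries, and 11.3% had all combination libraries below all OF1 libraries. The share of all genes with the whole separation was not computed. Mean levels were 11.9 ± 0.55 with DMSO, 10.46 ± 0.21 with XL413, 12.5 ± 0.29 with OF1 and 10.7 ± 0.67 CPM with the combination (SD, n = 3 each). The average XL413 effect on HOXD13 was -0.21 ± 0.05 (edgeR adjusted p = 0.0103). It came from -0.19 ± 0.06 for XL413 against DMSO (edgeR adjusted p = 0.136) and -0.23 ± 0.06 for the combination against OF1 (0.0518). This call held without each library in turn. It was lost with the muscle covariate, at -0.20 (edgeR adjusted p = 0.0754), and with replicate 1 alone for the combination, at -0.19 (0.0649).

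HOXD9, known from limb and spinal patterning (chromosome 2, 176122719 to 176124937), read 7.55, 8.86 and 9.08 CPM with DMSO, 8.91, 9.01 and 8.48 with XL413, 9.31, 9.89 and 10.9 with OF1 and 8.04, 7.57 and 7.64 with the combination. The combination lay below every OF1 library, by 7.75 ± 0.26 against 10.0 ± 0.82 CPM (SD, n = 3 each), and the means of DMSO and XL413 lay between, at 8.50 ± 0.83 and 8.80 ± 0.28. Groups that did not overlap in this direction were seen in 6 HOX genes and in 11.3% of all genes. HOXD9 fell by 0.37 ± 0.09 in log2 (edgeR adjusted p = 0.0238). The call was lost without OF1 replicate 2 or 3 or combination replicate 2 or 3, at -0.38 to -0.31 (edgeR adjusted p of 0.0582 to 0.0928), and when only these 2 groups were fitted (-0.37, 0.0824). With replicate 1 alone for the combination HOXD9 changed by -0.32 (edgeR adjusted p = 0.330), and with the muscle covariate by -0.15 (0.899).

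Outside the threshold, HOXB6 read 9.86, 10.8 and 9.89 CPM with DMSO, 11.6, 12.6 and 10.7 with XL413, 10.5, 9.57 and 10.4 with OF1 and 11.1, 10.5 and 9.26 with the combination. Its change with XL413 alone was 0.19 ± 0.08 (edgeR adjusted p = 0.233). HOXB13, a gene of prostate development, read 13.4, 13.2 and 12.999 CPM with DMSO, 12.8, 12.6 and 11.6 with XL413, 13.04, 13.1 and 11.9 with OF1 and 10.4, 13.3 and 12.8 with the combination. All its XL413 libraries were below all DMSO libraries, as 14.8% of all genes were, with a change of -0.10 ± 0.08. In the other direction 2 genes, HOXA9 and HOXB5, had all XL413 libraries above all DMSO libraries, as 13% of all genes did. Over the 35 genes the median log2 change of XL413 against DMSO was 0.04, beside 0.00 over all genes. In cluster A 9 of 10 genes were above 0 and in cluster D 4 of 7 were below 0. Of all 15353 genes, 7677 were above 0 and 7675 below. For the combination against OF1 the median was -0.11, with 28 of 35 below 0. Over all genes it was -0.00, with 7737 of 15353 below 0. In cluster D 7 of 7 tested genes were below 0 (median -0.35). Among these, HOXD1, HOXD3, HOXD4 and HOXD10 were weak, with means of 0.428, 0.270, 0.847 and 1.10 CPM over the 12 libraries. With the muscle covariate the median over the 35 genes was -0.06, with 22 below 0. With replicate 1 alone for the combination it was -0.16, with 28 below 0. Combination replicates 2 and 3 are the libraries with the lowest muscle and fibroblast markers. The muscle covariate also moved the median of XL413 against DMSO, to 0.02. The average XL413 effect had medians of 0.01 in A, 0.01 in B, -0.06 in C and -0.21 in D, where the median is the value of HOXD13.

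**Figure D4:**
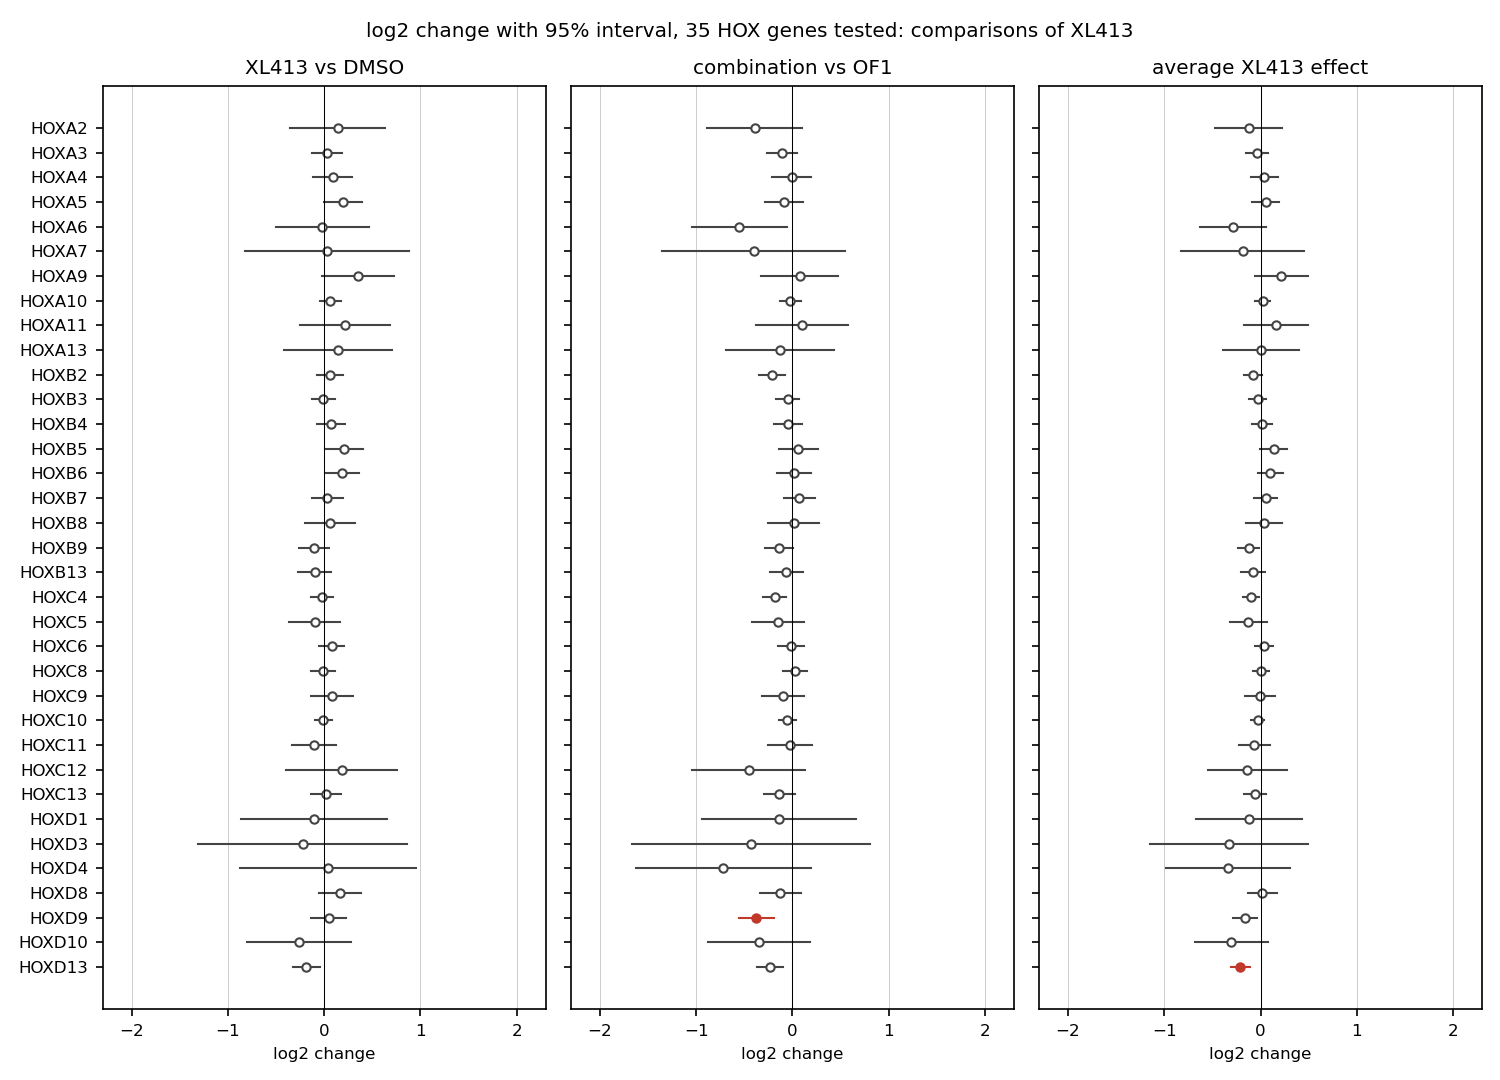
Log2 change (horizontal axis) of the 35 HOX genes tested, with 95% intervals as lines, for XL413 against DMSO, the combination against OF1 and the average XL413 effect. Filled red points mark the genes with an adjusted p under 0.05, HOXD9 at -0.37 in the second panel and HOXD13 at -0.21 in the third.

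Both inhibitors together lowered HOXC13 and no other HOX gene past the threshold. Against DMSO, HOXC13 changed by -0.29 ± 0.07 in log2 (edgeR adjusted p = 0.0248), and it was the single call among 35 HOX genes, where 10.7% of all genes passed and 5.07% were lower. With HOXC13-AS summed in, the change was also -0.29 (edgeR adjusted p = 0.0167). The call was lost without DMSO replicate 2 or 3 or combination replicate 2, at -0.29 to -0.24 (edgeR adjusted p of 0.0752 to 0.111), when the combination was represented by replicate 1 (-0.27, 0.164) and with the muscle covariate (-0.16, 0.445). HOXC4, a central gene at the anterior end of its cluster, read 16.6, 16.3 and 16.6 CPM with DMSO, 15.7, 17.0 and 16.1 with XL413, 16.6, 16.7 and 17.1 with OF1 and 14.3, 15.6 and 14.3 with the combination. All 3 combination libraries of HOXC4 were below all others, by -0.16 ± 0.05 against DMSO (edgeR adjusted p = 0.0762) and -0.18 ± 0.05 against OF1 (0.0614). HOXB2 gave -0.17 ± 0.06 against DMSO (edgeR adjusted p = 0.102) and -0.21 ± 0.06 against OF1 (0.0597). Groups that did not overlap were seen in 5 genes below DMSO (HOXC4, HOXC10, HOXC13, HOXD3 and HOXD13) and in 1 above (HOXB9), where each direction held 13.8% of all genes. The median over 35 genes against DMSO was -0.11, with 25 below 0. Over all genes it was -0.00, with 7748 of 15353 below 0. The HOX median was -0.06 with the muscle covariate (23 below 0) and -0.11 with replicate 1 alone for the combination (25 below 0).

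Non-additivity asks whether the log2 change of both inhibitors together differs from that of XL413 plus that of OF1. It passed edgeR's test with Benjamini-Hochberg adjustment for no HOX gene and for 0% of all genes, with 0 HOX genes also by DESeq2 and limma-voom. At an unadjusted p under 0.05 there were 4 (HOXA5, HOXB2, HOXC4 and HOXD9), where 10.2% of all genes passed. HOXD9 had -0.42 ± 0.12 (edgeR adjusted p = 0.188), and HOXB2 had -0.27 ± 0.09 (0.255). The non-additivity estimate was below 0 in 31 of 35 HOX genes and in 7297 of all 15353 genes. Its median was -0.14 over the HOX genes and 0.01 over all genes. The HOX genes were measured in the same 12 libraries, so these counts of genes are not separate observations. In clusters A and D all tested genes were below 0, 10 of 10 and 7 of 7. This contrast uses all 12 libraries, including the combination libraries low in muscle and fibroblast markers. With the muscle covariate the HOX median was -0.12, with 25 below 0, and HOXA5 changed sign, from -0.29 to 0.12. With replicate 1 alone for the combination the HOX median was -0.19, with 33 below 0.

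Summed over a cluster, HOX transcripts moved by small amounts. Cluster A read 56.7 ± 0.85, 60.6 ± 1.2, 59.99 ± 0.25 and 57.3 ± 1.4 CPM with DMSO, XL413, OF1 and the combination (SD, n = 3 each). Cluster B read 149 ± 1.4, 153 ± 3.7, 151 ± 6.5 and 143 ± 5.9, and cluster C read 141 ± 1.9, 142 ± 3.5, 140 ± 5.9 and 134 ± 2.2. In cluster D the values were 27.7 ± 1.3, 26.8 ± 0.48, 31.3 ± 1.1 and 25.9 ± 1.1. Each OF1 library of cluster D (30.3, 31.0 and 32.5 CPM) was above every other library of that cluster (24.9 to 28.7). All 3 libraries each of XL413 and OF1 were above all DMSO libraries in cluster A. In cluster C all combination libraries (131 to 136 CPM) were below all DMSO (139 to 143) and XL413 libraries (138 to 145). All 38 genes together made 375 ± 3.6, 382 ± 8.1, 383 ± 14 and 360 ± 9.6 CPM. Here too the combination libraries (354 to 371 CPM) were below all DMSO (372 to 379) and XL413 libraries (373 to 388). These sums are weighted to the strongest genes, no test was run on them, and no share over other sets of genes was computed.

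**Figure D5:**
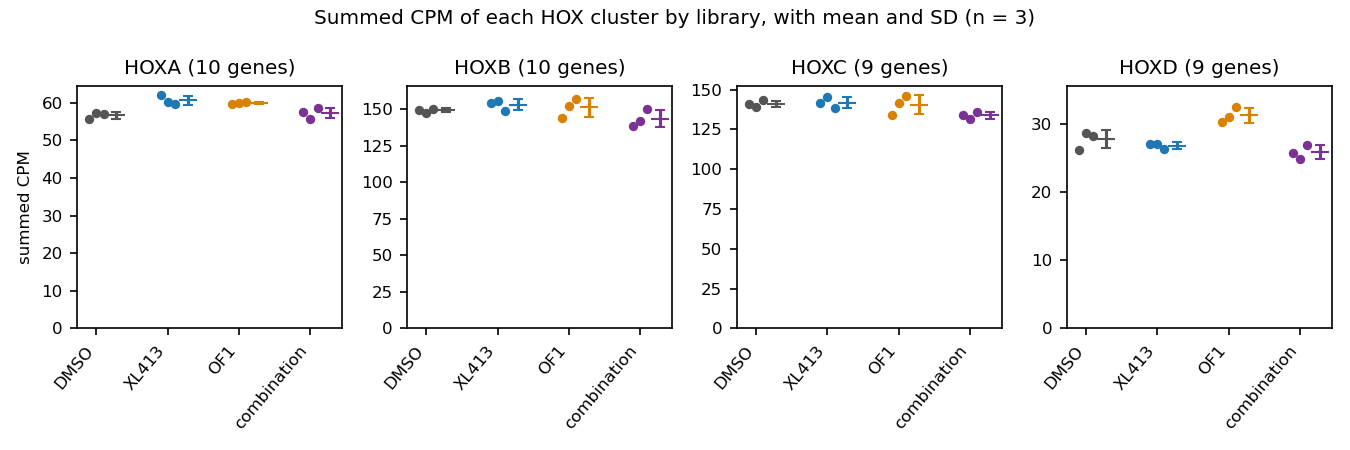
Summed CPM (vertical axis, from 0) of the HOX genes of each cluster in each library, by treatment, with the mean and SD of 3 libraries as bars. The 3 OF1 libraries of cluster D, at 30.3 to 32.5 CPM, lie above the other libraries of that cluster. Clusters B and C overlap between DMSO, XL413 and OF1, and in cluster C the combination lies below DMSO and XL413.

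The remaining expressed genes were not past the threshold in any of the 8 comparisons. At the anterior end, HOXA3, needed for the thymus and parathyroid, read 9.98, 10.6 and 10.8 CPM with DMSO, 10.4, 10.3 and 11.3 with XL413, 11.4, 10.6 and 10.7 with OF1 and 9.53, 11.1 and 9.63 with the combination. HOXB3, a gene of the hindbrain and neck, read 20.3, 18.2 and 18.8 CPM with DMSO, 19.8, 18.4 and 18.6 with XL413, 20.7, 18.9 and 19.5 with OF1 and 19.6, 18.9 and 18.7 with the combination. Both varied little, with changes against DMSO of 0.06 ± 0.07 and 0.05 ± 0.06 for OF1. HOXA2, which sets the identity of the skeleton of the second pharyngeal arch, read 1.35, 1.97 and 1.11 CPM with DMSO, 1.31, 1.37 and 2.18 with XL413, 1.78, 2.02 and 1.80 with OF1 and 1.52, 1.35 and 1.40 with the combination. The DMSO libraries alone spread from 1.11 to 1.97 CPM, and the change with OF1 was 0.34 ± 0.23.

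Among the central genes, HOXB4, known for expanding blood stem cells, read 20.2, 18.8 and 18.4 CPM with DMSO, 20.7, 19.8 and 19.8 with XL413, 17.9, 19.5 and 19.8 with OF1 and 17.4, 17.4 and 20.7 with the combination. HOXA4 read 7.22, 8.01 and 6.84 CPM with DMSO, 8.88, 7.47 and 7.11 with XL413, 7.44, 8.01 and 8.17 with OF1 and 8.11, 7.40 and 8.01 with the combination. The change with OF1 alone was -0.01 ± 0.07 for HOXB4 and 0.10 ± 0.10 for HOXA4. HOXA5, a gene of the lung and neck skeleton, read 9.53, 9.92 and 11.8 CPM with DMSO, 12.5, 11.8 and 11.5 with XL413, 10.8, 11.6 and 12.5 with OF1 and 11.7, 9.78 and 11.2 with the combination. DMSO replicates 1 and 2 of HOXA5 were low beside the third, and XL413 and OF1 stood 0.19 ± 0.09 and 0.15 ± 0.09 above DMSO. HOXC5 read 6.54, 5.63 and 6.78 CPM with DMSO, 5.17, 6.52 and 6.02 with XL413, 6.22, 6.44 and 6.30 with OF1 and 4.57, 6.45 and 6.01 with the combination. HOXC6, a gene of limb-level motor neurons, read 18.4, 17.1 and 17.5 CPM with DMSO, 18.6, 18.01 and 19.2 with XL413, 17.5, 17.995 and 17.7 with OF1 and 17.2, 16.2 and 19.4 with the combination. The RefSeq models of HOXC4, HOXC5 and HOXC6 begin at the same base (chromosome 12, 54016888), and transcripts of HOXC4 and HOXC6 share 484 bases, so the split of reads among these 3 genes is uncertain.

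HOXA6 read 1.56, 1.11 and 1.08 CPM with DMSO, 1.28, 1.28 and 1.15 with XL413, 1.01, 1.66 and 1.53 with OF1 and 1.12, 0.869 and 0.873 with the combination. Combination libraries were at or below 1.12 CPM, and the change against OF1 was -0.55 ± 0.23 (edgeR adjusted p = 0.173). HOXB7, a gene reported to be active in melanoma, read 20.5, 19.9 and 20.6 CPM with DMSO, 21.4, 19.9 and 21.0 with XL413, 17.5, 21.5 and 21.5 with OF1 and 19.4, 21.3 and 22.8 with the combination. HOXB8, which marks a lineage of blood cells and microglia, read 5.97, 5.75 and 6.78 CPM with DMSO, 6.41, 7.28 and 5.60 with XL413, 5.75, 4.65 and 6.33 with OF1 and 5.37, 5.89 and 5.64 with the combination. For HOXB7 the largest change in log2 was 0.07, for HOXB8 it was -0.19, and treatments overlapped in both. HOXC8, a gene of motor neurons to the forelimb, read 20.3, 18.9 and 18.4 CPM with DMSO, 18.9, 18.9 and 19.3 with XL413, 18.5, 19.8 and 19.96 with OF1 and 21.0, 18.6 and 19.8 with the combination. Its 12 libraries lay between 18.4 and 21.0 CPM.

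Of the posterior genes, HOXC10, second in level per kb and a gene of lumbar motor neurons, read 45.5, 45.9 and 44.9 CPM with DMSO, 45.3, 45.8 and 44.4 with XL413, 42.9, 45.9 and 47.8 with OF1 and 44.4, 44.2 and 42.9 with the combination. HOXA10, a gene of the uterus and lumbar spine, read 21.9, 21.8 and 22.2 CPM with DMSO, 23.6, 23.6 and 21.6 with XL413, 23.7, 23.0 and 21.9 with OF1 and 22.1, 21.8 and 23.6 with the combination. With OF1 alone they changed by 0.00 ± 0.04 and 0.06 ± 0.05. HOXC9, a gene of thoracic motor neurons, read 11.7, 11.6 and 13.3 CPM with DMSO, 13.8, 13.6 and 11.3 with XL413, 10.7, 12.8 and 12.9 with OF1 and 11.7, 9.87 and 12.4 with the combination. HOXC11 read 5.79, 6.19 and 6.96 CPM with DMSO, 5.51, 5.81 and 6.21 with XL413, 5.69, 5.99 and 7.35 with OF1 and 6.37, 6.25 and 6.14 with the combination. Their changes with OF1 alone were -0.01 ± 0.10 and 0.01 ± 0.11, and all groups overlapped. The posterior genes HOXA11, HOXD10 and HOXC12 were near 1 CPM. HOXA11, a gene of the forearm and uterus, read 2.04, 1.38 and 1.17 CPM with DMSO, 1.39, 2.01 and 1.93 with XL413, 1.304, 1.40 and 1.68 with OF1 and 1.40, 1.77 and 1.53 with the combination. HOXD10, also a lumbar gene, read 0.899, 1.41 and 1.08 CPM with DMSO, 0.929, 0.735 and 1.15 with XL413, 1.01, 1.302 and 1.62 with OF1 and 0.839, 1.07 and 1.18 with the combination. HOXC12 read 0.659, 1.32 and 1.08 CPM with DMSO, 1.28, 1.31 and 0.896 with XL413, 1.10, 1.01 and 1.501 with OF1 and 0.714, 1.04 and 0.873 with the combination. On 22 to 69 counts per library, no treatment of these 3 genes was clear of DMSO.

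Noncoding RNAs of the clusters and the proteins that act with or on HOX genes were followed in lists. Of 22 noncoding RNAs listed, 16 were in the table and 14 were tested, and none passed edgeR's test in any of the 8 comparisons, where the share of all genes that passed ran from 0% (non-additivity) to 12% (average XL413 effect). HOTAIR, a noncoding RNA of cluster C linked to Polycomb, read 0.777 to 1.40 CPM, and HAGLR of cluster D 4.60 to 6.26 CPM. In the average OF1 effect HOXB-AS3 had the smallest p of this list, at -0.37 ± 0.14 (edgeR adjusted p = 0.168), and in OF1 against DMSO it was HOXC13-AS, at -0.39 ± 0.20 (0.401). HOXC13-AS read 1.11 to 2.02 CPM. The median log2 change of the list in the average OF1 effect was -0.09, beside 0.00 over all genes.

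In the 3 comparisons of OF1 no member passed among 8 TALE cofactors (PBX, MEIS and PKNOX proteins that bind DNA with HOX proteins), 9 genes of the BRPF complexes, 12 MLL complex genes, 23 Polycomb genes and 6 tested of 15 related homeobox genes. Of all genes 1.15%, 3.41% and 4.94% passed in OF1 against DMSO, the combination against XL413 and the average effect, and nothing particular to these lists is read from a count of 0. The smallest p in the average OF1 effect belonged to MEIS2 among the cofactors (-0.08 ± 0.03, edgeR adjusted p = 0.186), to KMT2A among the MLL genes (0.13 ± 0.04, 0.0822) and to PCGF2 among the Polycomb genes (-0.11 ± 0.03, 0.0907). In OF1 against DMSO it belonged to PHF19 (-0.15 ± 0.04, edgeR adjusted p = 0.0852), KMT2B (-0.18 ± 0.05, 0.126) and PBX2 (-0.10 ± 0.04, 0.263) of the same lists. BRD1, a target of OF1, was on average at -0.12 ± 0.04 (edgeR adjusted p = 0.0906), and MEOX2, a homeobox gene read at 55.8 to 65.5 CPM, at -0.06 ± 0.03 (0.225).

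In the average XL413 effect, where 12% of all genes passed and 5.63% were lower, some members of these lists passed too. Of 8 cofactors 2 fell, MEIS1 by 0.37 ± 0.10 (edgeR adjusted p = 0.0331) and MEIS2 by 0.21 ± 0.03 (0.00166). Of 12 MLL complex genes 2 fell, HCFC1 by 0.25 ± 0.04 (edgeR adjusted p = 0.00155) and KMT2D by 0.20 ± 0.04 (0.00282). Of 23 Polycomb genes 6 fell and 2 rose, with KDM6B, a demethylase that opposes Polycomb, at -0.21 ± 0.05, CBX6 at -0.18 ± 0.03, PHF19 at 0.16 ± 0.03 and JARID2 at -0.13 ± 0.04. BRPF1 and ING5, of 9 BRPF complex genes, fell by 0.11 ± 0.03 and 0.13 ± 0.03, and EN1, of the related homeobox genes, fell by 0.28 ± 0.08. With XL413 alone, where 2.80% of all genes passed, MEIS2 (-0.22 ± 0.05), KMT2D (-0.27 ± 0.05), HCFC1 (-0.33 ± 0.06) and CBX6 (-0.21 ± 0.04) fell. In the combination against OF1, where 5.50% passed, MEIS2 (-0.19 ± 0.05) and BMI1 (-0.16 ± 0.04) fell while PHF19 rose (0.25 ± 0.04). Against DMSO the combination lowered MEIS2, 4 of 12 MLL complex genes (KMT2D, WDR5, HCFC1 and DOT1L) and 4 of 23 Polycomb genes. The latter were EZH2, PCGF2, CBX6 and KDM6B. Of all genes 10.7% passed there and 5.07% were lower. HOTAIR, of the noncoding RNAs, had the smallest p of its list with XL413 alone, at 0.53 ± 0.22 (edgeR adjusted p = 0.212).

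HOX genes varied between replicates about as much as other genes of their level. The median coefficient of variation within groups was 5.95% for the 23 HOX genes of 5 to 50 CPM and 5.22% for 6394 genes in that band. RefSeq promoter windows of 300 bases around the start were at hand for 20 HOX genes, 27 windows in all. The dinucleotide CG, which reads the same on both strands, was found a median of 22 times per window, against 14 over 35116 windows of all genes. At least 10 were found in 85.2% of the HOX windows and in 56.4% of all windows. The HOX windows were mostly of clusters A and D, and 7 of the 27 were of HOXA3. Cluster B gave only HOXB1, and cluster C only HOXC4 and HOXC5. HOXC13, HOXB5, HOXB9 and HOXD9 had no window.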

How the data were processed

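RNA from 12 libraries of A375 cells, 3 per treatment, was measured. The authors deposited expected counts: RSEM's estimates of reads per gene, unscaled, of which 10.6% of values were not whole, so all were rounded. Per the submitters' processing notes, the tools were Bowtie2 2.1.0 and RSEM 1.2.15 and the build hg38. A dUTP protocol that keeps strand is described per the labels, but whether counting used strand, and which annotation and read length applied, is not given in the sources used here.

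The 38 HOX genes and all gene lists were chosen with earlier results of these data known. 1 further gene that matches the naming rule, 1 listed gene and 1 sequence are not reported here. All 12 libraries entered 1 edgeR 4.0.16 fit (R 4.3.3) of 4 group means, with TMM factors, 15353 genes kept by filterByExpr and 8 residual degrees of freedom. The quasi-likelihood F test was used, with Benjamini-Hochberg adjustment over these 15353 genes and a threshold of 0.05. Standard errors were obtained by dividing the absolute log2 change by the root of F. This procedure was tested on simulated data with known changes.

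Genes with a mean of at least 1 CPM, and all those past the threshold, are given library by library. Of each other list, up to 4 members past the threshold are named, or the one with the smallest p. CPM per kb uses the median length of the GENCODE 29 transcripts with a RefSeq identifier, and gene positions are RefSeq's on GRCh38.p14. This length, the bands at 5 and 50 CPM, the limit of 10 CG and the choice of the 4 homeoboxes were set after values were seen. Alternatives were DESeq2 1.42.0, limma-voom (limma 3.58.1), other scaling factors and filters, a replicate block, a muscle covariate, leaving out libraries, and, added after seeing the data, HOX genes summed with antisense entries that share their reads. That sum joins HOXA4 to HOXA-AS2 only, although HOXA3 shares reads with both, and leaves HOXC4, HOXC5 and HOXC6 separate.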

Additional observations from a re-analysis of the deposited data

How the results depend on the processing

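Counts of HOX genes past the threshold stayed at 0 under every alternative run for OF1 against DMSO, XL413 against DMSO and non-additivity. With the muscle covariate, and with replicate 1 alone for the combination, the counts of the other 5 comparisons were all 0; replicate 1 is then assumed to vary like the other groups. In the combination against XL413 the count was 2 with DESeq2 and 2 with no filter (HOXB2 with HOXC13 in both), and 0 when only the compared groups were fitted. In the combination against OF1 it was 2 with DESeq2, 2 with no filter, 2 with a CPM of at least 1 in 3 libraries, 2 with the replicate block and 0 when only the compared groups were fitted. Leaving out 1 library at a time gave 0 to 2 calls in the combination against XL413, 0 to 3 in the average OF1 effect, 0 to 2 in the combination against DMSO, 0 to 2 in the combination against OF1 and 1 to 2 in the average XL413 effect. The cause of these differences was not tested. HOXA5 changed sign in non-additivity, to 0.12, with the muscle covariate. All 7 calls kept their direction in every alternative run for them. Of 18 same-numbered pairs of libraries, 1 had a correlation of deviations over 0.1 (range -0.16 to 0.20). No pairing by replicate number was thus seen, and the titles do not say whether equal numbers were run together. With the replicate block the call of HOXC13 in the combination against XL413 was lost (edgeR adjusted p = 0.0573) with its log2 change still -0.30, HOXB2 was called instead, and HOXB5 was lost from the average OF1 effect (0.0521) with its change still -0.27.

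Group means of the HOX genes moved by less than 1 SD in 280 of 280 values recomputed. Depth limits the weak genes: in OF1 against DMSO the 95% interval of HOXA7, HOXD3 and HOXD4 reached beyond 2-fold in at least one direction.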
